A study of Drosophila melanogaster with 2 samples.

Results

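The widest stretches of open chromatin in Drosophila S2 cells were examined by ATAC-seq, an assay in which the Tn5 transposase cuts accessible DNA and loads it with sequencing adapters. S2 is an embryo-derived cell line with features of hemocytes, the blood cells of the fly, and it was grown at 25°C. The labels give 1 group of 2 libraries of this line, with no treatment, transgene or inhibitor named, each made from 2000000 cells with 12 PCR cycles. A single peak list stood for both, and whether they were separate cultures is not stated. The study as a whole dealt with proteins that block PRC2, a histone methyltransferase of the Polycomb group.

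Wide intervals were selected on their width alone, as 500 bp or more between the deposited start and end, with repeated lines of the same bounds counted once. There were 1015 of them among 28292 intervals (3.59%), and the other 27277 are called narrower. Width, summit number, fold enrichment and pileup all come from the same reads, so these are described and not tested. With 1 list there was no replicate error on any interval, and the 95% intervals given below are exact binomial or Poisson intervals over the list that cover counting error only. In a bulk sample, a site open in fewer cells and a site less open in each cell cannot be told apart. The line's label was set against its genes: all 17 genes of the hemocyte list had an interval of some width in them or within 250 bp, against 66.4% of all protein-coding genes. The lists of other tissues had 8 of 10 neuronal, 8 of 11 muscle, 10 of 14 segmentation, 8 of 8 homeotic, 2 of 11 photoreceptor and 2 of 10 gut protease genes. Having an interval thus does not by itself mark the line as blood-like.

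An accessible site is a stretch of DNA where transcription factors have displaced or loosened a nucleosome. A promoter typically has 1 such stretch upstream of its start site, while enhancers of developmental genes often lie in introns or between genes and can sit close to each other. A peak caller joins sites into 1 interval when the signal between them does not drop below its threshold, and it then marks each local maximum as a summit.

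Wide intervals held several summits in most cases. In width they had a median of 594 bp (quartiles 539 and 674 bp, highest 1366 bp), against 135 bp (91 and 205 bp) for narrower ones. They made up 12.6% of the base pairs covered by all intervals and carried 3258 of the 35535 summits (9.17%). A single summit was found in 28, 2 in 264, 3 in 375, 4 in 223 and 5 in 84, while 26 had 6, 11 had 7 and 4 had 8. At least 2 summits were thus present in 97.2% of wide intervals (96.0 to 98.2%), against 15.3% of narrower ones (14.9 to 15.8%). The rule bears on this count, because a longer interval has more room.

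Signal was high in wide intervals, though not uniformly. The pileup, meaning how many fragments the caller stacked at a summit, was solved from the deposited fold and p-value. At the strongest summit its median was 208 fragments in wide intervals (quartiles 126 and 317.5, range 35 to 3042), against 54 in narrower ones (32 and 102, range 20 to 3294). The median fold enrichment over local background was 9.01, against 3.62. The background itself was also higher, with a median of 19.96 against 11.8 fragments, and it exceeded 3 times the genome-wide value in 25.5% of wide and 6.44% of narrower intervals. Strength did not settle width: 154 wide intervals (15.2%) had no summit of 100 fragments, and the highest pileup of the whole list, 3294, lay in a narrower interval. Among the 463 intervals with a pileup of 400 or more, 153 (33.0%) were wide.

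At the threshold the values ran together. The 8 intervals of exactly 500 bp had 2 to 5 summits and strongest pileups of 66 to 211 (median 117.5), and the 6 of 499 bp had 2 to 3 summits and pileups of 64 to 329 (median 204).

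The widest interval lay inside pnt, which encodes an ETS transcription factor that acts downstream of EGFR and Ras. It spanned 1366 bp on 3R (23325683 to 23327048, dm6), with its midpoint 19802 bp from the nearer end of the gene. Its 7 summits had pileups of 508, 441, 560, 981, 757, 879 and 991 from left to right, the highest with a 95% Poisson interval of 930 to 1055. All 7 were thus more than double the median of wide intervals, and the right part was the higher one. A further wide interval inside pnt (3R 23333974 to 23334964) had 6 summits, with pileups of 372 to 994.

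Next came an interval of 1364 bp inside Syp, an RNA-binding protein gene, on 3R (20764906 to 20766269). Its pileups were 100, 146, 149, 196, 187, 184 and 247. These were lower than in pnt at nearly the same width, on a background of 23.8 fragments against 94.8 in pnt. At 1332 bp, the interval on X from 1398927 to 1400258 overlapped no annotated gene, and its midpoint lay 2255 bp from an end of Rilpl. It had 8 summits, of which 1 stood out with 280 fragments (248 to 315), while the other 7 had 35 to 134.

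Shapes differed among the other widest intervals. In CG34376 (1304 bp) the 6 summits were weak, at 47 to 118 fragments. Inside tara, a trithorax-group gene, 7 summits over 1278 bp had 115 to 344. An interval of 1263 bp covered an end of disco, a zinc-finger transcription factor gene, with its midpoint 436 bp from that end and between genes. Of its 7 summits 5 had 205 to 289 fragments, and the 2 at the left edge had 47 and 39. The interval of 1253 bp on 2L near the rhodopsin gene Rh5 (12011398 to 12012650) had 8 summits of 118 to 445, with the highest at the left edge. Its highest fold over all summits was 4.32, and the background at the strongest summit was 116 fragments. At nvy, the fly counterpart of the mammalian ETO corepressor genes, the 6 summits over 1229 bp were nearly level, at 79 to 132 fragments. Pvr, the receptor gene of the PDGF/VEGF-like growth factors that keep hemocytes alive, held 8 summits of 96 to 242 over 1197 bp. In Tgi, a repressor gene of the Hippo pathway, 5 summits over 1168 bp stepped down from left to right as 188, 161, 118, 100 and 63.

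**Figure D1:**
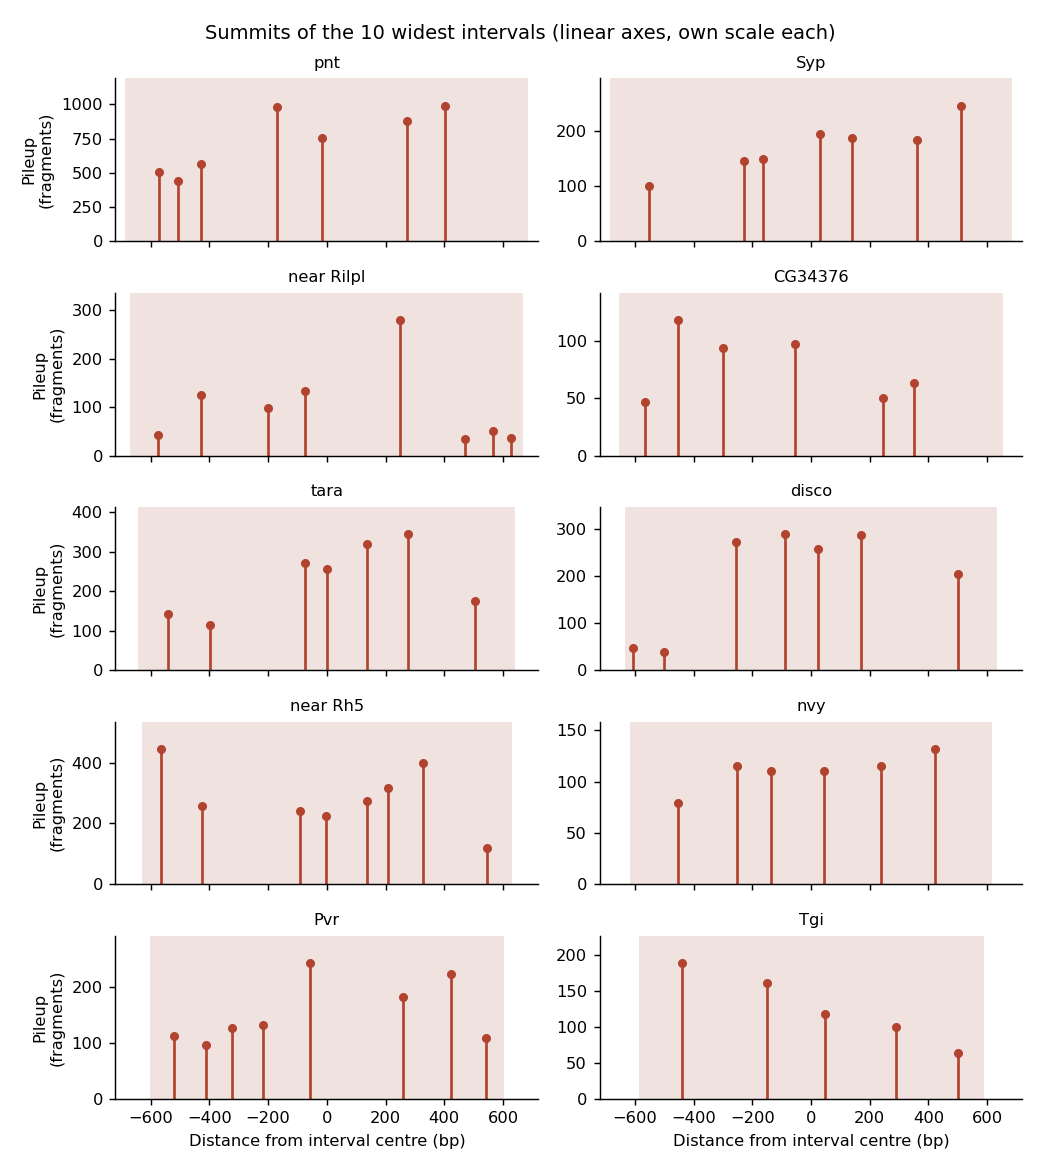
Pileup in fragments (vertical, own linear scale in each panel) of every summit in the 10 widest intervals, against distance in bp from the interval's centre, with the shaded band marking the interval. The interval in pnt reaches 991 fragments and that in CG34376 118, and the position of the strongest summit differs from panel to panel.

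Where an interval had 3 or more summits, the weakest had a median of 0.414 of the strongest pileup in wide intervals (n = 723) and 0.600 in narrower ones (n = 738). The strongest summit was the first or the last one in 55.3% of these wide intervals and in 66.5% of the narrower ones. Averaged over intervals, 56.4% of an interval's summits hold such a position in wide and 65.0% in narrower ones. Each share lay close to that of the positions themselves. Neighbouring summits lay a median of 158 bp apart in wide intervals (quartiles 105 and 224, range 20 to 514 bp, 2243 pairs of neighbours) and 110 bp apart in narrower ones (82 and 150, 5000 pairs). Among wide intervals the spacing shrank with the number of summits, from a median of 260 bp with 2 to 175 bp with 3, 137 bp with 4 and 126 bp with 5, and it was 120.5 to 136 bp with 6 to 8. The rule bears on this order, because fewer summits in 500 bp or more have more room between them. With 2 summits the spacing still ranged from 61 to 514 bp.

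**Figure D2:**
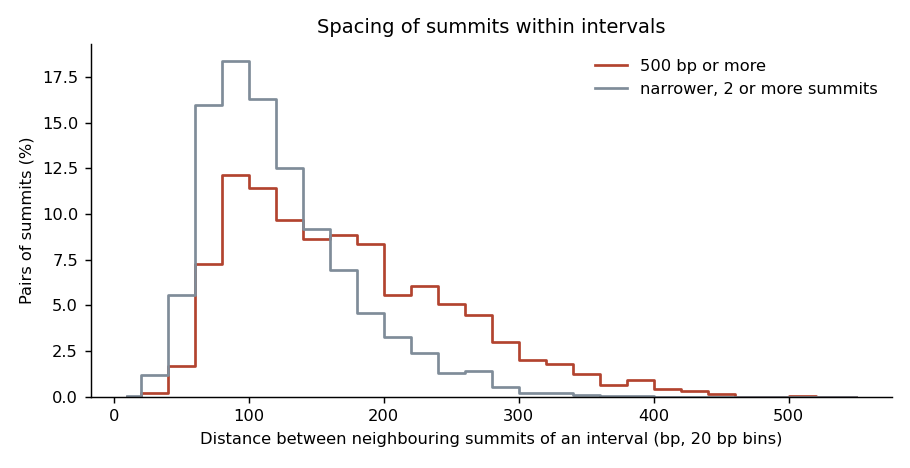
Share of neighbouring summit pairs (percent, vertical) by their distance in bp (horizontal, 20 bp bins), for intervals of 500 bp or more and for narrower intervals with 2 or more summits. Both curves are highest near 100 bp, and the wide intervals have the longer right tail, with medians of 158 and 110 bp.

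The 28 wide intervals with 1 summit were the opposite case. They were 501 to 674 bp wide, with a median pileup of 292.5 fragments (range 91 to 1912). The strongest was in ap, a LIM-homeodomain gene that specifies dorsal wing identity, on 2R (5726750 to 5727401), where 1 summit reached 1912 fragments (1827 to 2000) at a fold of 22.7.

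Wide intervals lay away from gene ends more often than narrower ones. By its midpoint, an interval was placed within 250 bp of an annotated gene end, farther inside a gene, or between genes. Of the 1015 wide intervals 188 were at a gene end (18.5%, 16.2 to 21.1%), against 8758 of 27277 narrower ones (32.1%, 31.6 to 32.7%). Inside genes lay 682 (67.2%, 64.2 to 70.1%), against 54.1% of narrower ones (53.5 to 54.7%). The share between genes was nearly equal, 14.3% (12.2 to 16.6%) and 13.8% (13.4 to 14.2%). Placing by midpoint bears on the gene-end share, because a wide interval can cover a gene end more than 250 bp from its midpoint. Counted by any overlap with the 250 bp windows, the gene-end shares were 27.2% of wide and 36.9% of narrower intervals. The gene table used gives both ends of a gene without strand, so starts and finishes were not separated, and exons were not told from introns. The median distance from the midpoint to the nearest gene end was 2028 bp for wide and 735 bp for narrower intervals, and 30.9% and 20.7% were more than 5 kb away.

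The share at gene ends was not a simple function of width. It was 25.2% at 60 to 99 bp and highest at 39.1% from 100 to 199 bp, then 32.1% from 200 to 299 bp, 23.8% from 300 to 399 bp and 23.8% from 400 to 499 bp. In the wide range it was 20.4% from 500 to 599 bp, 17.5% from 600 to 799 bp, 12.5% from 800 to 999 bp (9 of 72) and 12% from 1000 bp up (3 of 25). Of those last 25, 7 lay between genes (28%), with an exact interval of 12.1 to 49.4%.

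**Figure D3:**
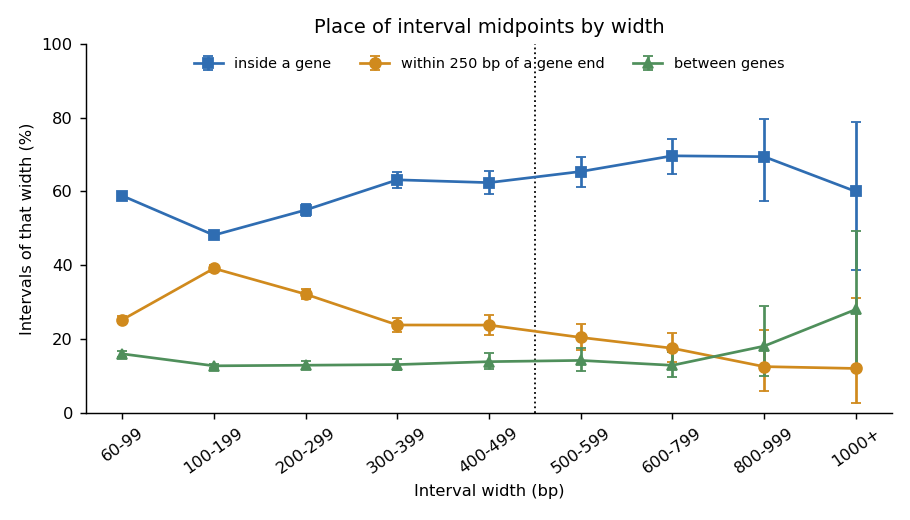
Share of intervals (percent, with 95% exact binomial intervals) whose midpoint lay inside a gene, within 250 bp of a gene end or between genes, by interval width in bp; the dotted line marks 500 bp. The gene-end share peaks at 39.1% from 100 to 199 bp and is 12% from 1000 bp up.

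The lower share at gene ends was also seen at equal pileup from 50 to 399 fragments. In the range of 100 to 199 fragments 18.1% of wide intervals (14.1 to 22.7%, n = 326) and 48.8% of narrower ones (47.4 to 50.2%, n = 4982) were at a gene end. From 200 to 399 fragments the shares were 19.9% (16.0 to 24.3%) and 40.3% (38.0 to 42.6%), and from 50 to 99 fragments they were 12.2% (7.29 to 18.9%) and 40.3% (39.2 to 41.4%). At 400 fragments or more the groups overlapped, with 22.9% (16.5 to 30.4%) and 26.1% (21.3 to 31.4%).

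Summit number moved with place. Wide intervals with 2 or more summits were at a gene end in 18.3% of cases (16.0 to 20.9%, n = 987), against 20.7% of narrower intervals with 2 or more (19.4 to 21.9%, n = 4187), while narrower intervals with 1 summit were there in 34.2% (33.6 to 34.8%). With exactly 2 summits the share was 26.1% in wide (20.9 to 31.9%) and 21.5% in narrower intervals (20.2 to 22.9%), and with 3 summits it was 19.2% and 16.9%. With 4 or more it was 11.5% in wide (8.34 to 15.3%) and 14.9% in narrower intervals (7.66 to 25.0%), the other direction, and in each of these 3 pairs the exact intervals overlapped. Between 100 and 199 fragments, however, wide intervals with 2 or more summits were at gene ends in 17.9% (13.9 to 22.6%) and narrower ones in 27.3% (24.6 to 30.3%). From 200 to 399 fragments these shares were 19.8% (15.9 to 24.3%) and 26.2% (22.3 to 30.3%), with overlapping intervals, and at 400 or more they were 22.3% and 21.6%. Set against narrower intervals of several summits, the difference was thus smaller than against all narrower ones, and it was not seen at the highest pileups.

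**Figure D4:**
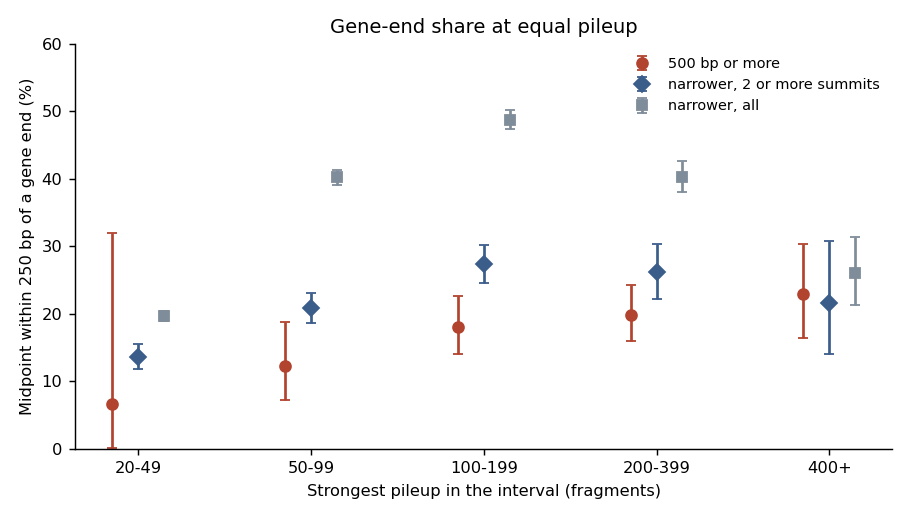
Share of intervals at a gene end (percent, with 95% exact binomial intervals) by the strongest pileup in the interval, for intervals of 500 bp or more, narrower intervals with 2 or more summits and all narrower intervals. From 50 to 399 fragments the wide intervals are lowest and all narrower intervals highest, and at 400 or more the 3 sets overlap.

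The gene ends in reach of wide intervals also differed. Ends of 2 or more protein-coding genes were in reach of 10 of the 188 (5.32%, 2.58 to 9.56%), against 23.9% of the 8758 narrower ones (23.0 to 24.8%). No protein-coding end was in reach of 56 (29.8%, 23.4 to 36.9%), against 9.09% (8.49 to 9.71%). In those 56 the nearest end belonged to a lncRNA gene in 32, a tRNA gene in 9, an antisense RNA gene in 6, an snRNA or snoRNA gene in 3 each, a miRNA gene in 2 and a pseudogene in 1. Among the 796 such narrower intervals it was a lncRNA gene in 385, a tRNA gene in 175 and an antisense RNA gene in 131. The nearest end was thus most often that of a lncRNA gene in both groups.

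Small RNA genes lay whole inside some wide intervals. Transfer RNA genes carry their promoter within the transcribed sequence and are short, and 9 wide intervals (0.887%, 0.406 to 1.68%) held 14 of the 290 tRNA genes entirely, against 115 narrower intervals (0.422%, 0.348 to 0.506%) with 127. Of the 9, 4 held more than 1 tRNA gene, against 12 of the 115, and a longer interval has more room for neighbours. The interval at 3L 3096241 to 3097028 (788 bp, 6 summits, strongest pileup 243) held tRNA:Cys-GCA-1-3, tRNA:Lys-CTT-1-12 and tRNA:Lys-CTT-1-13. Initiator methionine tRNA genes tRNA:iMet-CAT-1-4 and tRNA:iMet-CAT-1-5 shared an interval of 589 bp with a pileup of 222. Also held whole were 4 lncRNA, 3 snRNA, 2 snoRNA, 1 antisense RNA and 1 other small RNA gene, and the miRNA genes mir-9388 (pileup 608) and mir-9377 (pileup 400). Narrower intervals held 2 lncRNA, 3 snRNA, 1 snoRNA and 4 miRNA genes whole. Counting genes of every type, 21 of the 1015 wide and 129 of the 27277 narrower intervals held a gene whole. Protein-coding genes held whole numbered 0. Genes in this paragraph were chosen after their values were seen.

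Chromosome arms had wide intervals in near equal measure. Arm 2L had 202 (3.76% of its intervals), 2R had 194 (3.49%), 3L had 218 (3.68%), 3R had 233 (3.46%) and X had 164 (3.73%). The exact intervals of these 5 shares overlapped. On the small, largely heterochromatic chromosome 4 there were 4 of 312 (1.28%, 0.350 to 3.25%), and on Y 0 of 14, which allows a share of up to 23.2%.

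Longer genes had a wide interval more often than shorter ones. In all 723 of 13946 protein-coding genes (5.18%) had a wide interval in the gene or within 250 bp of it, and 841 of the 1015 wide intervals (82.9%) were placed at such a gene, against 84.6% of narrower ones. The median length of the 723 genes was 16.0 kb (quartiles 6.13 and 36.7), against 2.69 kb for 8541 genes with narrower intervals only and 1.29 kb for 4682 genes with none. The share with a wide interval was 0.781% of genes under 2 kb, 2.37% from 2 to 5 kb, 7.51% from 5 to 10 kb, 17.7% from 10 to 20 kb, 26.5% from 20 to 50 kb and 34.5% from 50 kb up. A longer gene offers more room. Among intervals inside genes the wide fraction was 0.960% (0.312 to 2.23%) in hosts under 2 kb and 1.83% (1.23 to 2.62%) from 2 to 5 kb. It was 3.40% (2.69 to 4.24%) from 5 to 10 kb and 4.88% (4.11 to 5.74%) from 10 to 20 kb. From 20 to 50 kb it was 5.37% (4.70 to 6.10%), and from 50 kb up 5.03% (4.36 to 5.77%). A short host cannot contain a wide interval more than 250 bp from both of its ends as easily, which limits the values of the shorter hosts. How far room accounts for these values was not tested.

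Several genes held many wide intervals. Of the 723 genes, 580 had 1, 90 had 2, 37 had 3 and 16 had 4 or more. Eip74EF, an ETS factor gene induced early by the steroid hormone ecdysone, had the most, 7 of its 21 intervals over 60.7 kb on 3L. From left to right these were 649, 651, 964, 528, 861, 520 and 561 bp wide, and their strongest pileups were 442, 245, 492, 238, 581, 166 and 105 fragments. All 7 lay inside the gene and away from its ends, and the last pair was the weakest.

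The genes tara, luna, Tlk and ush followed with 6 each, of 20, 43, 41 and 41 intervals of any width. In tara, a gene of 34.7 kb, the 6 had pileups of 325 to 735, and 3 further wide intervals lay close by: 9 wide intervals followed one another at gaps of 20 kb or less over 48.5 kb. Pileups in luna, a Krüppel-like factor gene of 138 kb, were 211 to 1016, with the highest in neighbouring intervals (1016 and 777 fragments) at 2R 11088883 to 11090434. Tlk, a protein kinase gene of 69.8 kb on X, had pileups of 208 to 402 at folds of 4.03 to 9.30. In ush, which encodes the cofactor of the blood-cell GATA factor, pileups were 208 to 744 but folds only 3.28 to 6.22 over 64.3 kb. The last of these 6, at 2L 540593 to 541166, lay just outside ush.

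Wide intervals also occurred in runs, which were joined by distance alone and not by gene. Another wide interval lay within 10 kb of 33.6% of them (30.7 to 36.6%) and within 1 kb of 7.88%. An interval of any width lay within 1 kb of 74.98% (72.2 to 77.6%), against 70.5% of narrower intervals (70.0 to 71.0%). Whether wide intervals lay closer to each other than an equal number of narrower ones was not tested. Joined at gaps of 20 kb or less, wide intervals formed 24 runs of 4 or more. Besides tara, the longest were 7 on 3L from 588960 to 647579 and 7 at Eip74EF. Runs of 6 each touched ap with scaf, hry, luna, and Ten-m (scaf and Ten-m are named after their values were seen). A run is named by the protein-coding genes that at least 1 of its wide intervals touched. By itself hry had only 1 wide interval, and Ten-m had 5. Near Rh5 on 2L, 5 wide intervals of 760 to 1253 bp lay within 9.62 kb and touched no protein-coding gene, with pileups of 336 to 728.

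The strongest wide intervals were in the run on 3L, which holds the growth-promoting microRNA gene mir-ban (bantam) at 642208 to 642288 and is named after the values were seen. Of the 10 highest pileups among wide intervals, 4 lay there: 3042 fragments (2935 to 3152) at 627921 to 628592, 1956 (1870 to 2045) at 616411 to 617112, 1723 (1643 to 1806) at 639962 to 640721 and 1375 (1303 to 1450) at 646988 to 647579. Another wide interval within 30 kb of mir-ban had 882. The local background at these 5 was 130 to 297 fragments, against a median of 19.96 over wide intervals. The closest to mir-ban was the third of these, 1867 bp away by its midpoint, in the annotated RNA gene lncRNA:CR43334. Others among the 10 were in ap (1912), at CG2930 and yin on X (1171), in luna (1016), in pnt (994 and 991) and in Pdk1, a kinase gene of insulin signalling (981).

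Wide intervals were counted in 20 gene lists, chosen with earlier results of these data known and described here with no test. The counts are to be read beside the 5.18% of all protein-coding genes and, for long genes, the 28.9% (295) of the 1019 protein-coding genes of 20 kb or more.

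Ecdysone response genes had the highest count, 9 of 11, and carried 26 wide intervals. Ecdysone acts through a heterodimer of nuclear receptors that switches on a cascade of transcription factor genes. EcR, the receptor gene itself, had 5 wide intervals, the widest 1039 bp with 7 summits and a pileup of 201. Eip74EF had the 7 given above, and Eip78C, a nuclear receptor gene, had 1 of 749 bp with a pileup of 93. All 9 were genes of 20 kb or more, as were 10 of the 11 listed.

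Notch pathway genes had wide intervals in 6 of 10, and 5 of the 6 were 20 kb or longer. In mam, which encodes the coactivator Mastermind, 5 were found, the widest 972 bp with a pileup of 130. Ser, a ligand gene, had 1 of 689 bp (pileup 228) and N, the receptor gene, 1 of 631 bp (pileup 308). Genes of the AP-1 and JNK pathway had them in 4 of 7, of which 2 were 20 kb or longer. The widest were 621 bp in msn, an upstream kinase gene (pileup 183), 619 bp in kay, the fly Fos gene (pileup 818), and 599 bp in puc, a JNK phosphatase gene (pileup 159). The EGFR and Ras list had 6 of 14, of which 4 were 20 kb or longer, as were 8 of the 14 listed. It was led by pnt, and then by spi, a ligand gene (734 bp, pileup 322), and aop, an ETS repressor gene that opposes pnt (661 bp, pileup 668).

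JAK/STAT genes counted 4 of 9, and 3 of the 4 were shorter than 20 kb. Beside upd2, a cytokine gene, lay an interval of 771 bp (pileup 239) just outside the gene, which had no other interval. Ptp61F, a phosphatase gene of 133 kb that restrains the pathway, had 2, the wider of 681 bp (pileup 184). The other lay at rho, a gene within Ptp61F, and is counted in the EGFR and Ras list too (rho is named after its values were seen). The gene upd3, also a cytokine gene, had 1 of 587 bp (pileup 260). The Hippo list had 4 of 10, with sd, the DNA-binding partner of Yorkie, at 917 bp (pileup 281), kibra at 621 bp (pileup 110) and wts, a kinase gene, at 559 bp (pileup 194). Of these 4 Hippo genes 2 were 20 kb or longer. In the insulin, Tor and Myc list 3 of 8 had them: foxo, a transcription factor gene restrained by insulin (763 bp, pileup 240), InR, the receptor gene (652 bp, pileup 345), and Myc (548 bp, pileup 119). Of these 3, foxo and InR were 20 kb or longer.

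Immune and blood cell genes were counted next. Toll and Imd genes had 4 of 16, led by the kinase gene Tak1 (765 bp, pileup 60), the adaptor gene Myd88 (629 bp, pileup 78) and Dif, an NF-κB gene (581 bp, pileup 430). The first 2 of these were wide but weak. Of the 4 Toll and Imd genes 1 was 20 kb or longer. The hemocyte list had 4 of 17, led by Pvr, ush (771 bp, pileup 528) and Col4a1, a collagen IV gene (679 bp with 5 summits, pileup 101). Of these 4 hemocyte genes 2 were 20 kb or longer. The widest interval of srp, the blood-cell GATA factor gene, was 414 bp with a pileup of 499, and that of eater, a phagocytosis receptor gene, 290 bp with 201, both named after their values were seen.

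Among chromatin regulators the exact intervals of the 3 lists overlapped, and the lists differed in gene length. On the trithorax list 5 of 11 had a wide interval (16.7 to 76.6%, median gene length 12.8 kb), with osa, a Brahma complex gene, at 981 bp (pileup 632), kis, a chromatin remodeller gene, at 777 bp (pileup 447) and Trl, the GAGA factor gene, at 712 bp (pileup 374). On the Polycomb list 3 of 20 did (3.21 to 37.9%, median gene length 6.18 kb), and all 3 encode parts of PRC1 or its relatives: ph-p (684 bp, pileup 266), Psc (574 bp, pileup 470) and Su(z)2 (507 bp, pileup 251). Psc and Su(z)2 are neighbours, and 5 wide intervals ran over the 16.8 kb between and beside them. Of the 11 insulator protein genes 0 had a wide interval (up to 28.5%, median gene length 3.14 kb).

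The homeotic genes, which Polycomb proteins keep silent outside their domains, had 0 wide intervals in 8, although 6 are 20 kb or longer. The exact interval on 0 of 8 reaches 36.9%, beyond the 28.9% of long genes. All 8 had narrower intervals, and the widest was 491 bp in Scr (pileup 209), named after its value was seen. With a minimum of 400 bp the count was 4 of 8, against 9.08% of all protein-coding genes at that minimum. The share of genes of 20 kb or more was not taken at 400 bp.

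The other lists had 0 to 2 members with a wide interval. Cell cycle genes had 1 of 13, E2f1 (575 bp, pileup 502), and segmentation genes 1 of 14, hry, a bHLH repressor gene (785 bp, pileup 231). Heat shock genes had 0 of 11 and gut protease genes 0 of 10, both short genes. Muscle genes had 2 of 11, with Mef2, a muscle transcription factor gene (643 bp, pileup 377), and Mlc2, a myosin light chain gene (558 bp, pileup 97). Neuronal genes had 2 of 10, Syx1A (612 bp, pileup 159) and elav (526 bp, pileup 310), and none of the 7 neuronal genes of 20 kb or more was among them. Photoreceptor genes had 1 of 11, norpA, a phospholipase C gene (710 bp, pileup 183).

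**Figure D5:**
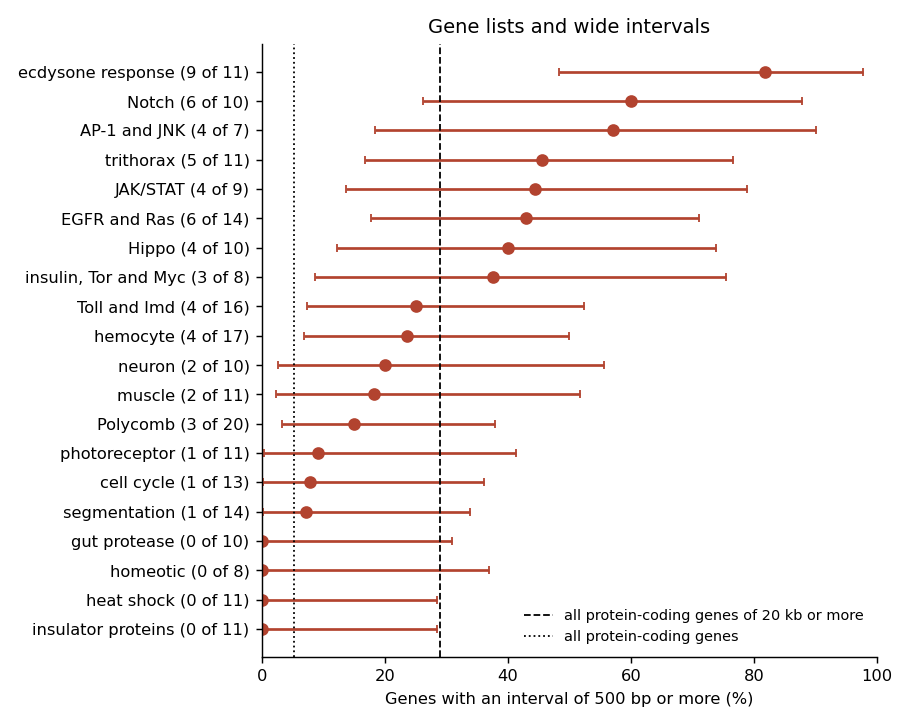
Share of each list's genes (percent, with 95% exact binomial intervals) that had an interval of 500 bp or more in the gene or within 250 bp of it; the dotted line is the 5.18% of all protein-coding genes and the dashed line the 28.9% of those of 20 kb or more. Ecdysone response genes stand highest at 9 of 11, and the insulator, heat shock, homeotic and gut protease lists are at 0.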

How the data were processed

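ATAC-seq peaks of 2 S2 libraries were used from 1 list for the whole series, which gives no value per library. Per the submitters' processing notes, Bowtie2, MACS2, deepTools and the build dm6 were used; their versions and settings, duplicate handling, the Tn5 shift and any pooling of libraries are not stated there. The deposited fold enrichment is a ratio of pileup to local background, and −log10 p and −log10 q values are as deposited by the authors. The deposited score is 10 times the −log10 q, without its decimals, and was not used. The lowest −log10 q was 1.30. Columns of samples left out numbered 0.

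Lines with equal bounds were taken as 1 interval. Pileup and background were solved from fold and −log10 p (Poisson upper tail, pseudocount 1), within 0.001 for all 35535 summits (largest residual 0.000521); the solver was checked on simulated data. The deposited peak names speak of fragments, but whether read pairs or extended reads were stacked is not stated. The lowest background, taken as genome-wide, was 9.91. In 65 lines no summit was placed, 0 of them in wide intervals. Library depth is unknown. PCR copies are not independent molecules, so intervals cover counting error only.

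Genes came from a RefSeq table of Release 6 plus ISO1 MT, the assembly dm6 names (17807 genes, 13946 protein-coding, without strand or exons). Promoter starts and sequence features could not be taken from it, so no sequence is shown. No test was made. Of 234 listed names 2 (Dl and Tor) had no single match and 2 matched by synonym, leaving 232 genes in 20 lists. Genes named are those at the 10 widest and 10 strongest wide intervals, at intervals with most summits, the 5 genes with most wide intervals and up to 3 members per list with the widest interval; names outside this are marked. Members, lists and thresholds were chosen with earlier results of these data known. Alternatives changed the width minimum, window, position, peak threshold, merging and gene set. Python 3.11.15, pandas 2.3.3, numpy 2.4.6 and scipy 1.17.1 were used.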

Additional observations from a re-analysis of the deposited data

How the results depend on the processing

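Wide intervals were at gene ends less often than narrower ones under all 14 alternatives of that share. It was 18.5% as reported and 21.1%, 14.6% and 12% with a minimum width of 400, 750 and 1000 bp (32.4%, 31.7% and 31.6% of the narrower ones). With windows of 100, 500 and 1000 bp it was 7.78%, 25.6% and 36.3% (23.0%, 43.7% and 54.8% of the narrower), with any overlap 27.2% (36.9%) and with protein-coding genes only 13% (29.2%). The other 6 alternatives gave values inside its 95% interval. The share of narrower intervals did move in 2 of these 6. It was 43.5% with −log10 q of at least 10 and 46.0% with fold at or above the median, against 31.9 to 33.1% in the others. At 1000 bp only 25 intervals were left. The share with 2 or more summits was 91.1%, 98.6%, 100% and 100% at minimum widths of 400, 600, 750 and 1000 bp, and 89.1% with summits of −log10 q of at least 10 and 78.5% with summits at or above the median fold, against 97.2% as reported. The median pileup was 183, 230, 271 and 280 fragments at the 4 widths, against 208. Of protein-coding genes 9.08%, 2.72%, 0.939% and 0.165% had an interval of those widths, and 1.71% had a wide one at a gene end, against 5.18%. Ecdysone response genes counted 9 of 11 at 600 bp and 2 of 11 at 750 bp. No paired analysis was possible because the 2 libraries form 1 group and share 1 list; for the same reason no library could be left out.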
